A study of Homo sapiens with 2 samples.

Results

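The genes of cholesterol synthesis, uptake and control by the sterol regulatory element-binding proteins (SREBPs) were examined in AGS cells, an epithelial line from a human gastric adenocarcinoma, after silencing of galectin-3. The 28 genes were chosen by name, out of 19775 genes named on the arrays, with earlier results of these data known. They follow the pathway from acetyl-CoA to cholesterol and then its regulators. Every probe set (a group of probes for 1 transcript region) listed for 1 of them was read. There were 2 one-colour Affymetrix arrays, 1 of AGS cells silenced for galectin-3 with a synthetic double-stranded small interfering RNA and 1 of AGS control cells. The labels do not give the treatment of the control cells, the time after silencing or the number of cultures behind each array. Because each group was 1 array, the differences below have no replicate check and no test was made, and the small number of arrays limits their precision. In RNA from a whole culture, fewer cells that express a gene and less of its RNA per cell cannot be told apart.

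Cells build cholesterol from acetyl-CoA by way of mevalonate, the isoprenoid farnesyl diphosphate, squalene and lanosterol. The enzymes of this route are regulated together by the SREBPs, transcription factors made as precursors in the membrane of the endoplasmic reticulum. When sterols are plentiful, INSIG proteins hold the escort protein SCAP and its bound SREBP in that membrane, and when sterols are scarce SCAP carries SREBP to the Golgi apparatus, where proteases release the active factor. INSIG1 is itself an SREBP target gene.

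Facts of the whole comparison frame these values. LGALS3, which encodes galectin-3, had a signal of 2699.8 on the silenced array, against 20206.3 on the control array, 7.48-fold lower. A floor was set on each array from olfactory receptor probe sets, at 109.5 on the silenced array and 138.4 on the control array, and 10514 genes lay above it on at least 1 array. Their median log2 ratio, silenced minus control, was -0.02. Epithelial genes were strongly expressed, with EPCAM at 19383 on the silenced array and 18866.5 on the control array, and 6 of 12 markers of gastric epithelium were measured. These 6 were not all alike on both arrays, with log2 ratios from -0.34 for MUC1 to 1.08 for CLDN4. The gastric markers CLDN18, TFF1, TFF2, MUC5AC, MUC6 and GKN1 were under the floor on both arrays, as were all 7 leukocyte markers, all 4 hepatocyte markers and 5 of 6 fibroblast markers. The remaining fibroblast marker, COL1A1, had a signal of 1502 on the silenced array and 816.3 on the control array. The summed signals of the lists on the silenced and the control array were 107677 and 89635.8 for gastric epithelium, 285.6 and 185.3 for leukocytes, 199.7 and 177.7 for hepatocytes, and 1652.4 and 1063.3 for fibroblasts, and their part in the results was not tested. The signal of the 3' part of a transcript over its 5' part, a measure of RNA integrity, was 0.936 on the silenced array and 0.980 on the control array for GAPDH, and 1.13 and 1.14 for ACTB.

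Cholesterol genes were mostly lower in galectin-3-silenced cells. Of the 28 genes, 26 were measured, 25 exceeding both floors, and FDFT1 and CYP51A1, which had no probe set listed for them alone, were not analysed here. In 21 of the 26 the log2 ratio was under 0 and in 5 it was over 0, while 49.7% of the 10162 measured genes with a direction were under 0. That count of 21 was 18 with scaling to the hybridization controls and 22 with scaling to the poly-A controls. The members had a median of -0.43, or 1.34-fold lower, beside -0.02 over all measured genes. By a rule of size of 2-fold, 6 genes (23.1%) were lower, INSIG1, HMGCS1, MSMO1, DHCR7, STARD4 and SQLE, while 3.07% of all 10514 measured genes were at least 2-fold lower. One gene, INSIG2, was at least 2-fold higher, which is 3.85% of the members and close to the 3.31% of all measured genes. At 1.5-fold, 12 members were lower and 3 higher, against 10.4% and 10.6% of all measured genes. Since the members were chosen with earlier results of these data known, these shares describe the list and are no independent check. Just inside the 2-fold limit was SQLE, with a log2 ratio of -1.04, and just outside it was SREBF1, with -0.91.

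**Figure D1:**
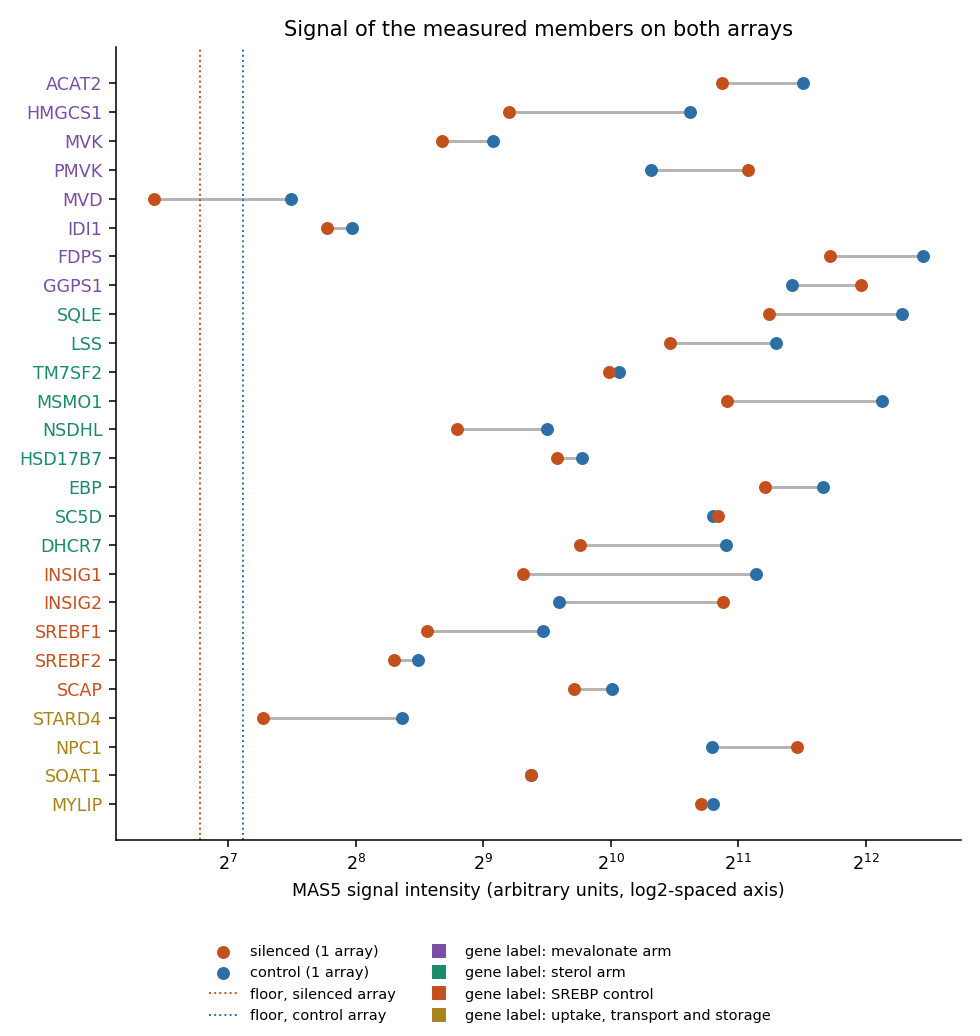
MAS5 signal of each of the 26 measured members on the silenced array (orange) and the control array (blue), 1 array each, on a log2-spaced axis in pathway order, with each array's floor as a dotted line. The silenced point lies left of the control point for most genes, the gap being widest for INSIG1 (636.4 silenced, 2255.9 control), while PMVK, GGPS1, INSIG2, NPC1 and, barely, SC5D lie the other way, and MVD is under the floor on the silenced array.

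Many promoters of these genes hold a box for NF-Y, a factor known to act beside SREBPs. Their sequences are shown here for the genes that were at least 2-fold lower, with SREBF2 and INSIG2 for contrast. Windows from 250 bases before to 50 bases after an annotated start were taken from RefSeq (GRCh38.p14). They were searched on both strands for the NF-Y box CCAAT, the E-box CACGTG, the SREBP element TCACNCCAC and the same element without its first T, CACNCCAC, which every full element also holds. Of the 28 genes 25 had at least 1 window, and ACAT2, FDFT1 and SQLE had none in the table. Of these 25 genes, 19 (76.0%) held CCAAT in some window, against 39.7% of the 27305 genes in the table. By window this was 63.6% of 33 against 34.6% of 35116. The E-box was found in 4 of the 25 (INSIG1, LSS, SC5D and SCAP), 16.0% against 8.77% of all genes, and the shorter SREBP element also in 4 (IDI1, INSIG1, SC5D and SREBF2), 16.0% against 7.05%. The full SREBP element was found in SREBF2 alone, 1 of 25 genes against 1.39% of all genes. All 5 genes at least 2-fold lower that had a window held CCAAT. So did GGPS1 and SC5D, which were not lower, with log2 ratios of 0.54 and 0.04. SOAT1, TM7SF2, MYLIP, SREBF2, IDI1 and HSD17B7, with log2 ratios from -0.20 to -0.0004, held it as well. Since 19 of the 25 genes held the box, its presence in all 5 does not set the lower genes apart. CCAAT was not found in the windows of INSIG2, PMVK, NPC1, SCAP, SREBF1 and CYP51A1. A match of letters is a description and not a binding site, and these letters may also lie outside the windows. For HMGCS1 and DHCR7 the window printed is the one that held a match. SREBF2 holds the full element, and INSIG2 was higher and held none of the 4. They are written 5′ to 3′ along the gene, and capitals mark every match of a motif on either strand.

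INSIG1, chr7:155297628-155297927 (+ strand): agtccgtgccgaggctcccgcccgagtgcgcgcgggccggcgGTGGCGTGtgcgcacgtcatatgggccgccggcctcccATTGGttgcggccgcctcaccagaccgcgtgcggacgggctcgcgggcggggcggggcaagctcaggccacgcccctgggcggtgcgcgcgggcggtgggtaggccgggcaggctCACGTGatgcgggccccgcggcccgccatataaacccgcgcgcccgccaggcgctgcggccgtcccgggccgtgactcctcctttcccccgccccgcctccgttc

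HMGCS1, chr5:43313363-43313662 (- strand): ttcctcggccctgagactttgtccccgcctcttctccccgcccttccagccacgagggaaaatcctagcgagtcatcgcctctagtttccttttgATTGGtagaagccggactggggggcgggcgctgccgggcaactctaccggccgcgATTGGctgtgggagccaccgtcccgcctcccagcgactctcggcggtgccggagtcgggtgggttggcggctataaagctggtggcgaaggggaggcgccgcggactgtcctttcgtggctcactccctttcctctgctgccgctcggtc

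MSMO1, chr4:165327419-165327718 (+ strand): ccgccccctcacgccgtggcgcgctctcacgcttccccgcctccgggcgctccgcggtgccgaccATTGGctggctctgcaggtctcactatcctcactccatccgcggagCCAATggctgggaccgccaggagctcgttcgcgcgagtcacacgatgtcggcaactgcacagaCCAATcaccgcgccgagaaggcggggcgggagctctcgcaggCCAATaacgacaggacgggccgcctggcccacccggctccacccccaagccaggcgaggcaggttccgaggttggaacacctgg

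DHCR7, chr11:71448344-71448643 (- strand): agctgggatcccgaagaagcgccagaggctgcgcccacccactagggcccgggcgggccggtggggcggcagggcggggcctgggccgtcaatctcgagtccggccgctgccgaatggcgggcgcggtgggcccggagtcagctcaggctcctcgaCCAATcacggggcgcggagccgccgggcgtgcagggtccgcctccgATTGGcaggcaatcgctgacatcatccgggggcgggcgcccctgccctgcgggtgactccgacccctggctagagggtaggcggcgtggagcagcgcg

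STARD4, chr5:111512486-111512785 (- strand): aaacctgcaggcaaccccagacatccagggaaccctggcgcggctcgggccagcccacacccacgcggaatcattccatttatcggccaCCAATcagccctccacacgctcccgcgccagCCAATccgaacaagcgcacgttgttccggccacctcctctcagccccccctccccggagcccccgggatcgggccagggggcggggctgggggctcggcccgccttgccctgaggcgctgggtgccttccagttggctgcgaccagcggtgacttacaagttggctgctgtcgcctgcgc

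SREBF2, chr22:41832855-41833154 (+ strand): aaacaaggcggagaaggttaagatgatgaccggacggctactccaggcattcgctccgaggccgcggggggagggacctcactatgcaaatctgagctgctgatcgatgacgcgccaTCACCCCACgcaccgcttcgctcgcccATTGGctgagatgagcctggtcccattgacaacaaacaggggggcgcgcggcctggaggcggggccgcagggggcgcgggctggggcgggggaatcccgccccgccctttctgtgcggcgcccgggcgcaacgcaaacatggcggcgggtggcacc

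INSIG2, chr2:118088221-118088520 (+ strand): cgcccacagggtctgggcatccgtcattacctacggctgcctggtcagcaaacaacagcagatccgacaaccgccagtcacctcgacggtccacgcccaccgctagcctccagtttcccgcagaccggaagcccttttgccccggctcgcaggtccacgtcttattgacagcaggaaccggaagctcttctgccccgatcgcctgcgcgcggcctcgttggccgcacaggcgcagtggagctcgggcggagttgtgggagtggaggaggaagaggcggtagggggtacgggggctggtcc

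MSMO1 held 4 NF-Y boxes, which began 185, 139, 76 and 34 bases before its annotated start. HMGCS1, DHCR7 and STARD4 held 2 each, beginning 155 and 100, 94 and 48, and 161 and 130 bases before theirs. INSIG1 held 1 of each of the NF-Y box, the E-box and the shorter SREBP element, beginning 170, 55 and 208 bases before its start. In SREBF2 the SREBP element began 133 bases before the start and an NF-Y box 106 bases before it.

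The first enzymes of the pathway, which make and use mevalonate, were lower for the most part. Of these 8 genes 6 had a log2 ratio under 0, only HMGCS1 was past 2-fold, and their median was -0.52. ACAT2, the cytosolic thiolase that joins acetyl-CoA units, had a signal of 1879.8 on the silenced array, against 2913.4 on the control array, a log2 ratio of -0.63. HMGCS1, the cytosolic HMG-CoA synthase, which supplies the substrate of the rate-limiting reductase, had 589.2 on the silenced array, against 1579.9 on the control array, 2.68-fold lower. Its second probe set went the same way, with 624.9 on the silenced array and 1391 on the control array, a log2 ratio of -1.15. HMGCS1 ranked 89th from the lowest among all 10514 genes.

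Mevalonate is then phosphorylated and decarboxylated. MVK, mevalonate kinase, had 408.8 on the silenced array, against 539.1 on the control array, a log2 ratio of -0.40. Another pair of MVK probe sets lay above the floor on the control array only, with 283.8 and 249 there, and gave bounds of at least 2.59-fold and 2.27-fold lower. The size of the MVK difference therefore varied with the probe set, while its direction was the same in all 3. PMVK, phosphomevalonate kinase, went the other way, with 2156.8 on the silenced array, against 1273.2 on the control array, 1.69-fold higher on its single probe set. MVD, which decarboxylates the product of PMVK, had 85.6 on the silenced array, under the floor, and 179.5 on the control array, so that it was at least 1.64-fold lower. Adjacent steps of the pathway thus had ratios of opposite sign.

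The isoprenoid steps showed the same mixture. IDI1, the isomerase that readies the isoprenoid unit for chain building, had 219 on the silenced array, against 250.4 on the control array, a log2 ratio of -0.19 on the probe set chosen to stand for the gene. Its brighter probe sets, left out by that choice because their design allows cross-hybridisation, had 2912.3 on the silenced array, against 4662.6 on the control array, and 2445.3 against 4139.3, with log2 ratios of -0.68 and -0.76. All 4 IDI1 probe sets were lower. FDPS, which makes farnesyl diphosphate, the branch point to sterols, had 3370.4 on the silenced array, against 5585.5 on the control array, 1.66-fold lower. GGPS1, which extends farnesyl diphosphate to the geranylgeranyl form used to modify proteins and so leads away from sterols, had 3995 on the silenced array, against 2742.3 on the control array, 1.46-fold higher, and 0.74 on the log2 scale by its second probe set. The enzyme that makes farnesyl diphosphate was thus lower and the one that lengthens it was higher. FDFT1, the first gene of the sterol arm, was not analysed, so the sterol side of that branch point was not seen.

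The sterol arm, from squalene to cholesterol, had a median of -0.70, the lowest of the 4 role groups except when probe sets were summarised by their median, which gave -0.56 beside -0.67 for the mevalonate arm. Of the 9 genes measured 8 had a log2 ratio under 0, and the 3 genes past 2-fold, SQLE, MSMO1 and DHCR7, were all lower. SQLE, squalene monooxygenase, a control point of the sterol arm, had 2426.5 on the silenced array, against 4985.7 on the control array, 2.05-fold lower. Its other 2 probe sets above the floor gave log2 ratios of -0.92 and -0.60, short of 2-fold. LSS, which closes the rings to form lanosterol, had 1416.4 on the silenced array, against 2516.1 on the control array, 1.78-fold lower, and -0.28 on a second probe set.

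Lanosterol is next stripped of methyl groups. MSMO1, the sterol methyl oxidase, had 1930.3 on the silenced array, against 4472.8 on the control array, 2.32-fold lower on its only probe set. NSDHL, the dehydrogenase that acts after MSMO1, had 443.7 on the silenced array, against 722.3 on the control array, with log2 ratios of -0.70 and -0.59 on its 2 probe sets. HSD17B7, the ketoreductase of the same demethylation, had 762.7 on the silenced array, against 873.7 on the control array, a log2 ratio of -0.20 on a probe set of the kind whose design allows cross-hybridisation. The 3 enzymes of this demethylation cycle were all lower, by very different amounts, and HSD17B7 came to only -0.01 with scaling to the hybridization controls. TM7SF2, a sterol reductase of the nuclear envelope and endoplasmic reticulum, had 1016.8 on the silenced array, against 1071.6 on the control array, a log2 ratio of -0.08 that turned to 0.11 with scaling to the hybridization controls.

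The last steps rearrange and reduce the double bonds of the sterol. EBP, the sterol isomerase, had 2373.2 on the silenced array, against 3255 on the control array, a log2 ratio of -0.46, and its other probe sets above both floors gave -0.55 and 0.08. SC5D, the sterol desaturase after EBP, had 1831.5 on the silenced array, against 1782.2 on the control array, a log2 ratio of 0.04 that turned to -0.19 with scaling to the poly-A controls. DHCR7, the reductase that forms cholesterol, had 866.7 on the silenced array, against 1912 on the control array, 2.21-fold lower, and its second probe set had 680.3 on the silenced array, against 1785.1 on the control array, a log2 ratio of -1.39. Both DHCR7 probe sets were past 2-fold, whereas SC5D, which acts just before it, was within the spread between probe sets of 1 gene (SD 0.32 over 4728 genes).

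**Figure D2:**
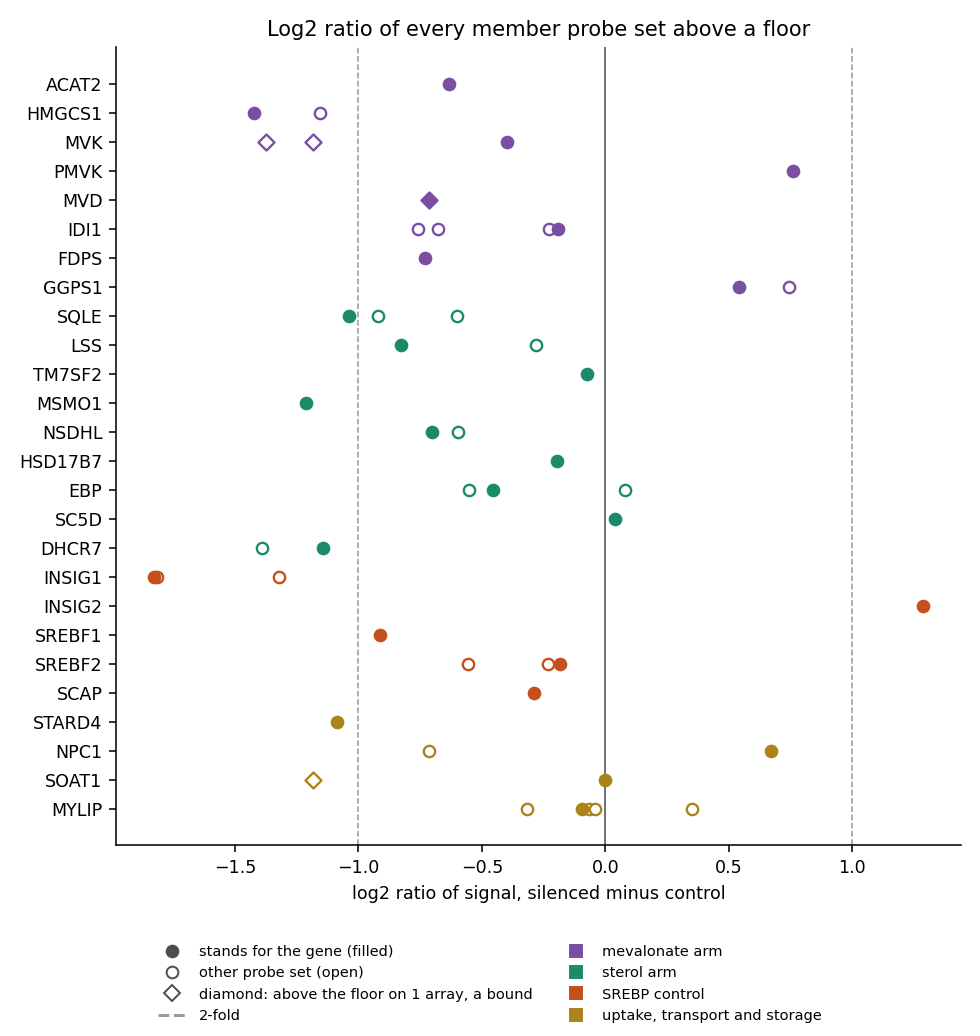
Log2 ratio, silenced minus control, of each member probe set above a floor, by gene in pathway order and coloured by role, with filled points for the probe set that stands for the gene, open points for others and diamonds for bounds. INSIG1, HMGCS1 and DHCR7 have all their probe sets left of the 2-fold line, INSIG2 alone is right of the other, and EBP, NPC1 and MYLIP have probe sets on both sides of 0.

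The regulators of SREBP gave the widest range, with INSIG1 and INSIG2 at opposite ends. INSIG1 had 636.4 on the silenced array, against 2255.9 on the control array, 3.54-fold lower, and ranked 27th from the lowest of 10514 genes. Its other probe sets had 442.9 on the silenced array, against 1557.2 on the control array, and 240.8 against 602.1, with log2 ratios of -1.81 and -1.32. All 3 INSIG1 probe sets were thus past 2-fold. INSIG2, its close relative, whose protein also holds SCAP in the endoplasmic reticulum, had 1884.5 on the silenced array, against 773.6 on the control array, 2.44-fold higher on its single probe set, and ranked 158th from the highest. These were the lowest and the highest log2 ratios of the 26 members, -1.83 and 1.28.

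The SREBP genes and their escort were lower by less. SREBF1, whose protein acts mainly on fatty acid genes, had 376.9 on the silenced array, against 710.1 on the control array, 1.88-fold lower. SREBF2, whose protein acts mainly on cholesterol genes, had 315.5 on the silenced array, against 358 on the control array, a log2 ratio of -0.18, with -0.23 and -0.56 on its other probe sets. SCAP, the escort, had 840.5 on the silenced array, against 1028.3 on the control array, a log2 ratio of -0.29. All were short of 2-fold, and SREBF1 had the largest difference of the 3.

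Genes of sterol uptake, transport and storage did not share a direction, and their median of -0.05 ran from -0.33, with all 4 under 0, when probe sets were summarised by their median to 0.18 without _s_at and _x_at probe sets. STARD4, a cytosolic protein that carries cholesterol between membranes, had 154.7 on the silenced array, against 328.2 on the control array, 2.12-fold lower on its only probe set and not far above the floor. NPC1, which exports cholesterol from the lysosome after uptake, had 2818 on the silenced array, against 1772.5 on the control array, 1.59-fold higher. A dimmer NPC1 probe set went the other way, with 111.4 on the silenced array, against 182.7 on the control array, a log2 ratio of -0.71, so the NPC1 direction rested on the brighter probe set.

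SOAT1, which esterifies cholesterol for storage, had 664.5 on the silenced array, against 664.7 on the control array. Another SOAT1 probe set, under the floor on the silenced array at 104.3 and at 248.6 on the control array, was at least 2.27-fold lower, so the 2 probe sets did not match. MYLIP, a ubiquitin ligase that marks lipoprotein receptors for degradation, had 1672.6 on the silenced array, against 1786.7 on the control array, a log2 ratio of -0.10, and its 5 probe sets above both floors ran from -0.32 to 0.35. Neither SOAT1 nor MYLIP had a settled direction.

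Across all members, 46 of 60 probe sets lay above the floor on both arrays, 38 of them with a ratio under 0 and 8 with a ratio over 0. Of the 46, 10 were at least 2-fold lower and 1 was at least 2-fold higher. Probe sets of 1 gene repeat that gene, with 3 of INSIG1, 2 of HMGCS1 and 2 of DHCR7 among the lower ones. These counts therefore add no genes, and the share over all probe sets was not computed. In 12 genes with at least 2 probe sets above both floors, 9 had all of them on the same side of 0. The SD between probe sets of 1 member was 0.33 on the log2 scale, beside 0.32 over all genes. That SD compares probe sets within 1 RNA sample and says nothing of repeat cultures.

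**Figure D3:**
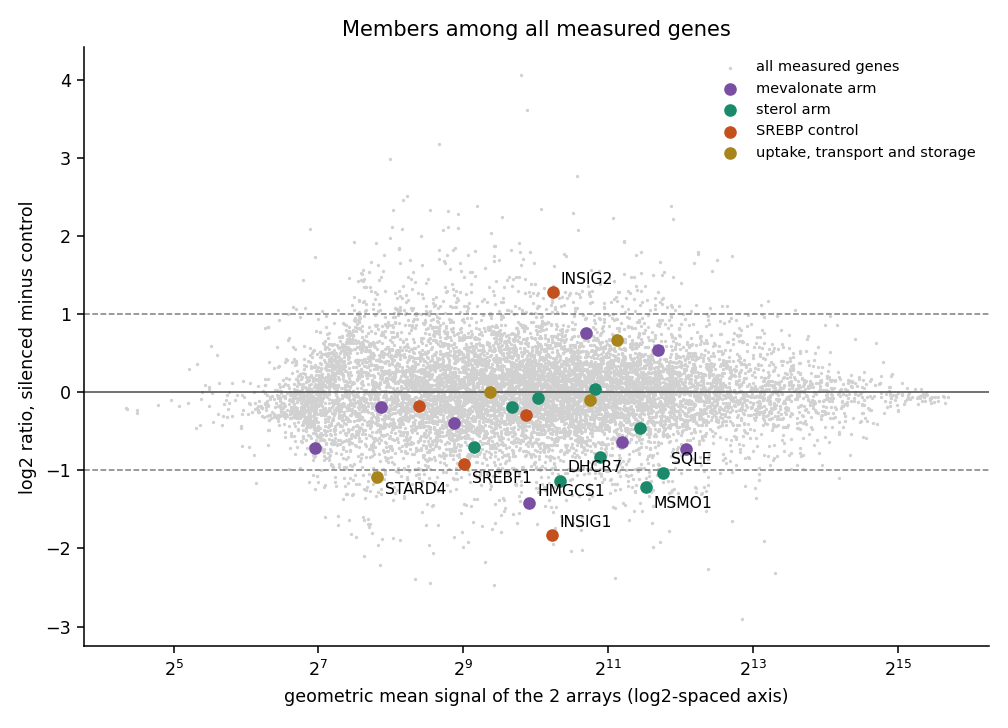
Log2 ratio, silenced minus control, against the geometric mean signal of both arrays (log2-spaced axis) for all 10514 measured genes (grey) and the 26 members (coloured by role), with dashed lines at 2-fold. Most members lie under 0 over the whole range of signal, with INSIG1 at -1.83 the lowest and INSIG2 at 1.28 the highest.

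Other genes of the pathway, in 5 lists that do not overlap the members, had medians on both sides of 0. Together 40 were measured, with a median log2 ratio of -0.10 that turned to 0.08 with scaling to the hybridization controls, and the 5 past 2-fold were all lower, 12.5% beside the 3.07% of all measured genes. That count was 2 with scaling to the hybridization controls, 11 with scaling to the poly-A controls and 1 when probe sets were summarised by their median. The list of auxiliary sterol synthesis held 4 measured genes, all under 0 (3 of them with scaling to the hybridization controls), with a median of -0.90. Of these FAXDC2, of the fatty acid hydroxylase family to which MSMO1 also belongs, had 291.5 on the silenced array, against 698.6 on the control array, 2.40-fold lower. In the isoprenoid branches 2 of 9 measured genes were 2-fold lower, 1 with scaling to the hybridization controls and 0 with the median of probe sets, and the list median was -0.26. NUS1, a subunit of the enzyme that makes dolichol precursors, had 568.3 on the silenced array, against 1383.1 on the control array, 2.43-fold lower, with -0.64 on another probe set. COQ2, which attaches the isoprenoid tail of ubiquinone, had 601.4 on the silenced array, against 1326.2 on the control array, 2.21-fold lower, with -0.41 on another. The second probe sets of NUS1 and COQ2 were both short of 2-fold.

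Among 8 measured genes of SREBP processing and turnover in the endoplasmic reticulum, 3 were under 0 and 5 over it, with a median of 0.13 that turned to -0.10 with scaling to the poly-A controls. ERLIN1, a membrane scaffold that binds cholesterol, had 1056.6 on the silenced array, against 2199 on the control array, 2.08-fold lower, with -0.65 on another probe set. The 12 measured genes of sterol transport, storage and sensing had 4 under 0 and 8 over it, none of them past 2-fold, and their median of 0.13 likewise turned to -0.10. SCARB1, a lipoprotein receptor that takes up cholesterol, had the largest difference there, with 854.5 on the silenced array, against 1669.4 on the control array, a log2 ratio of -0.97. GRAMD1A, a sterol carrier at membrane contacts, was 1.48-fold higher, with a log2 ratio of only 0.09 on another probe set. All 7 measured fatty acid genes known as SREBP targets were under 0, or 4 of 7 with scaling to the hybridization controls, with a median of -0.30. Of these SCD, the stearoyl-CoA desaturase, had 4725.8 on the silenced array, against 9610.3 on the control array, 2.03-fold lower, with -0.70 to -0.52 on other probe sets. Genes of these lists with no probe set listed for them alone were not analysed here. ABC transporters, some of which move cholesterol out of cells, were outside these lists. Among them ABCA1, named here outside the rule used for the lists, was more than 2-fold higher, with a log2 ratio of 1.84. Of all measured genes 3.31% were at least 2-fold higher. In the same family ABCC3 had 0.64, ABCA7 0.10 and ABCA2 -0.32, and the family was not counted as a whole.

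**Figure D4:**
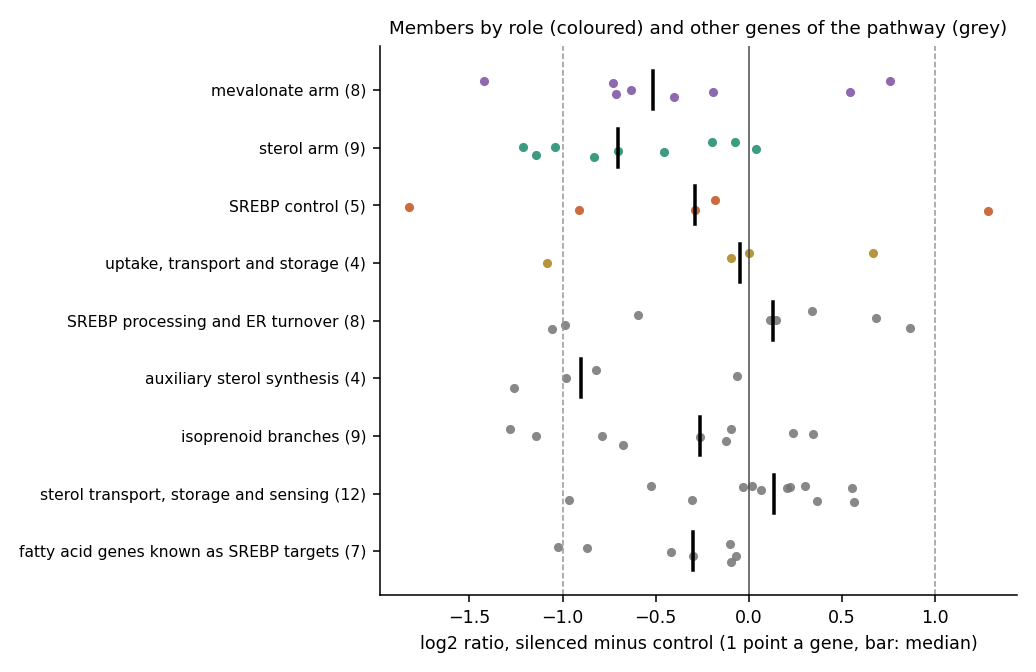
Log2 ratio, silenced minus control, of each measured gene (1 point) by role group of the members (coloured) and by list of other pathway genes (grey), with the number of genes in brackets and the median as a bar. The medians of the mevalonate arm (-0.52), the sterol arm (-0.70) and auxiliary sterol synthesis (-0.90) lie left of 0, and those of SREBP processing and ER turnover (0.13) and of sterol transport, storage and sensing (0.13) lie right of it, although both of these turned to -0.10 with scaling to the poly-A controls.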

How the data were processed

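Per the labels' protocols, total RNA from Trizol extraction was turned into biotinylated cRNA for one-colour Affymetrix arrays. Titles gave the groups. The authors deposited MAS5 signals, per the submitters' processing notes, which are linear intensity values. Their software version, scaling target and filters were not given in the sources used here. Both arrays had a 2% trimmed mean of 500.07, so the deposited scaling was kept. Such scaling cannot show a change in the total RNA of a cell.

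Of the 54675 probe sets, 41097 carry 1 gene symbol in the platform annotation, and only these named genes. Signals under a floor, the 95th percentile of 135 olfactory receptor probe sets on each array (109.5 silenced, 138.4 control), were raised to it, which makes the ratio a bound where 1 array was under it, and no ratio is given where both were. Each gene took its probe set of highest mean log2 signal, _x_at kinds left out where it had another. The log2 ratio is silenced minus control, and genes were counted at 2-fold. No test or p-value was possible with 1 array per group. All 28 members are named. Of each list of other pathway genes the text names up to 4 past 2-fold, or the 2 largest where none passed. The members and lists were chosen with earlier results of these data known. Scaling, floor, probe set and threshold were varied in 13 alternatives. The steps were checked on simulated arrays holding known changes. Python 3.11.15, numpy 2.4.6, pandas 2.3.3 and statsmodels 0.14.6 were used.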

Additional observations from a re-analysis of the deposited data

How the results depend on the processing

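No paired analysis was possible because each group has 1 array. Under 12 alternatives of scaling, floor or probe set the median over the measured members stayed under 0, from -0.66 with the poly-A controls set equal to -0.25 with the hybridization controls set equal. These scalings put the median of all measured genes at -0.25 and 0.17. Relative to it the members' median was -0.41 with either. Each scaling shifts every log2 ratio by the same amount, so this difference could not change and is no check. With the hybridization controls set equal 3 members were at least 2-fold lower, HMGCS1, MSMO1 and INSIG1, beside 576 higher and 183 lower among all measured genes. With the poly-A controls set equal 8 members were lower, LSS and SREBF1 in addition to the 6 reported, beside 186 higher and 633 lower among all measured genes. Without a floor 557 were higher. At 1.5-fold 3 members were higher and 12 lower, beside 1117 higher and 1091 lower among all measured genes. HMGCS1, MSMO1, INSIG1 and INSIG2 were past 2-fold under all 12 alternatives, SQLE under 10 of them, and DHCR7 under 10 of the 11 that gave it a value. STARD4 was past 2-fold under 9, and with a floor 2 times higher it was a bound of -0.58. MVD reached -1.07 without a floor or with the array median as the floor. Of the 26 members 21 kept 1 sign (18 lower and 3 higher). Of the lower ones, IDI1, HSD17B7 and SREBF2 came to only -0.01, -0.01 and -0.001 with the hybridization controls set equal. The sign changed in TM7SF2, SC5D, NPC1, SOAT1 and MYLIP, NPC1 reaching -0.02 and SOAT1 -0.59 when probe sets were summarised by their median. That setting also put MVK at -1.18, past 2-fold. Of 303 member values 296 lay within 0.32 log2 units, the SD between probe sets of 1 gene, of the reported value and 7 did not. Many of these values could not move so far. Scaling to either set of controls or to the median of all genes shifts every log2 ratio by less than that SD. Removing or lowering the floor leaves ratios above both floors unchanged. The count of 296 is therefore no check of stability. Without _s_at and _x_at probe sets 20 members had a value, and DHCR7 had none. Signals near the floor limit the ratios of STARD4 and MVD.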
